A study of Mus musculus with 8 samples.

Results

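The hyaluronan synthase genes Has1, Has2 and Has3, the receptor gene Cd44 and the hyaluronidase genes Hyal1 and Hyal2 were followed in cultured mouse KCs (keratinocytes). They were taken by these names from the deposited gene tables, 6 of the 41457 genes listed. KCs were prepared from tail epidermis of adult wildtype mice, given as C57BL/6 in the labels and as C57BL/6J in the paper. They were plated on pre-coated plates and kept untreated in a serum-free KC medium with 0.06 mM Ca++, with splitting near confluence. Cells cultured for 1 week (4 samples) were compared with cells cultured for 3 weeks (4 samples). The series describes 4 independent experiments, and the labels number the replicates of each time from 1 to 4. The paper states that batches were shared between the times, but the labels do not match them, and the main tests were unpaired. Poly(A) RNA was sequenced, and between 13896807 and 20026084 reads per sample were counted on exons at 1 week and between 14096649 and 18127283 at 3 weeks. RPKM corrects the exon reads of a gene for its exon length and for the depth of the sample, so that genes of different length can be compared.

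Hyaluronan is a long unbranched sugar chain that fills the space between epidermal cells. Synthases in the plasma membrane make it from UDP-glucuronic acid and UDP-N-acetylglucosamine and extrude it while it grows. Cd44 is its main receptor on KCs, and hyaluronidases cut the chain, Hyal2 at the cell surface into large pieces and Hyal1 in lysosomes into small ones.

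The keratinocyte label was first checked against markers. Of 9 keratinocyte markers all had at least 3 reads in each sample, and their summed RPKM was 15359, 13371, 14443 and 15765 for the 4 replicates at 1 week and 8311, 9537, 8884 and 9922 later. Krt14 was the most abundant of them on average, with 5837 to 7628 RPKM at 1 week and 4465 to 5930.2 RPKM at 3 weeks. Krt5 (log2 fold change -1.32, adjusted p = 0.00103) and Itga6 (-0.75, adjusted p = 0.0391) were lower at 3 weeks in edgeR, and none of the 9 passed as higher. The log2 fold changes of Dsp (1.21), Cdh1 (0.58), Krt15 (0.47), Itgb4 (0.40) and Perp (0.11) were positive without passing. Those of Trp63 (-0.69) and Krt14 (-0.23) were negative and did not pass either. Summed over each list, 7 fibroblast markers reached at most 6.32 RPKM in any sample, 5 immune markers 2.69 and 3 endothelial markers 0.548. The most abundant of these lists on average were Col1a1, Lyz2 and Kdr, and Cd207, which marks Langerhans cells, had 0 reads in all 8 samples. Of 3 smooth muscle markers Acta2 made up nearly the whole sum, with 279, 364, 259 and 138 RPKM at 1 week and 2690.0, 2290 (replicate 2), 2106 and 1112 RPKM at 3 weeks, while Myh11 and Des were far lower in every sample. The part of these marker differences in the results on hyaluronan genes was not tested. Among the libraries, 3 weeks replicate 3 stood apart with the lowest share of exon reads that spanned an exon-exon junction, 22.0% against 23.4% to 23.6% in the other 3 samples of that time and 24.7% to 25.2% at 1 week. For the members, log2 fold changes without it are given beside those with it.

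At both times the members were ordered from Cd44 over Hyal2 and Hyal1 to the synthases. Cd44 was above Hyal2, Hyal2 above Hyal1, and Hyal1 above Has2 and Has3 in 8 of 8 samples by RPKM. The place of Hyal1 is uncertain, since most of its reads were not counted as unique. Its unique reads over its own exon bases gave 0.0868, 0.187, 0.230 and 0.281 on the RPKM scale at 1 week. These values were below Has2 in 4 of 4 samples and below Has3 in 3 of 4. At 3 weeks the same measure gave 0.827, 0.603, 0.235 and 0.750, above Has2 and Has3 in each sample. How the tool counts unique reads is not given. Only 3.37% of the exon reads of Hyal1 were unique although 1816 of its 3777 exon bases are its own. This measure therefore does not settle the place of Hyal1. Has2 was above Has3 in 6 of 8 samples, so that these neighbours did not differ beyond their spread, and Has1 was the lowest in 8 of 8. Across all listed genes Cd44 ranked between 254 and 755 by RPKM in a sample, and Hyal2 between 2029 and 3304. Hyal1 ranked between 7145 and 8712 at 1 week and between 3594 and 6073 at 3 weeks.

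**Figure D1:**
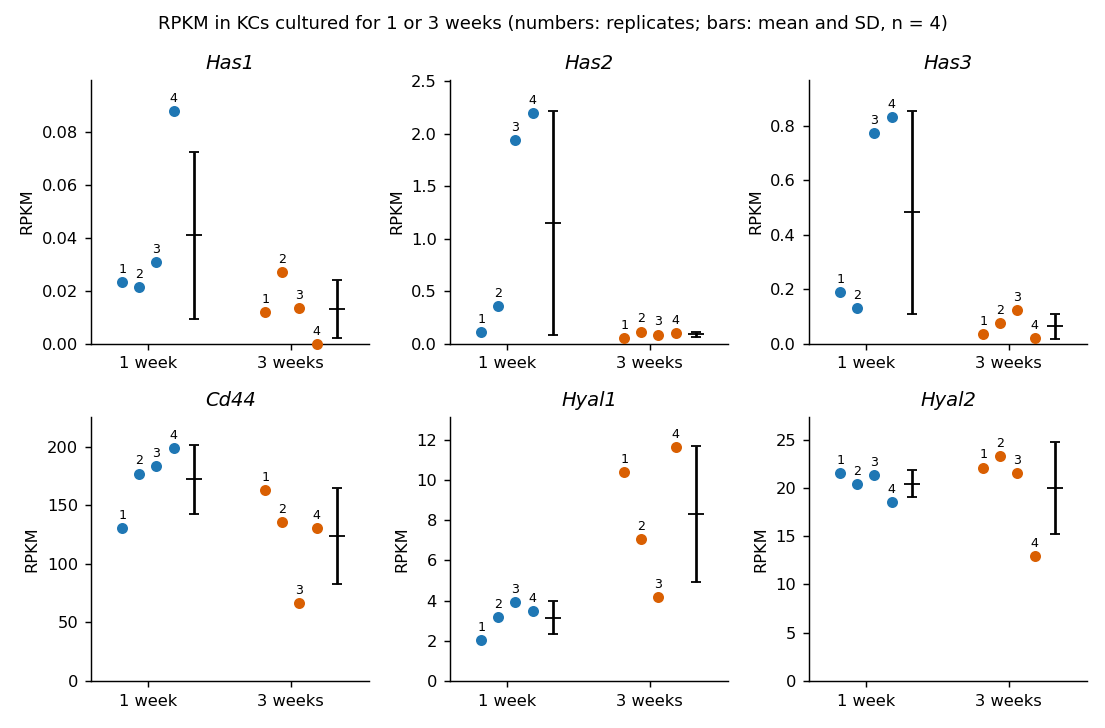
RPKM of each of the 6 genes (y axis, linear, starting at 0) at 1 and 3 weeks of culture, with a point per sample, its replicate number above it, and the mean and SD of 4 samples as a black bar beside the points. The samples of the 2 times are separate for Has3 and Hyal1 and overlap for Has1, Has2, Cd44 and Hyal2.

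The number of reads behind these levels differed widely. Over 4 samples Cd44 had 83199 exon reads at 1 week and 56214 at 3 weeks, Hyal2 4821 and 4410, and Hyal1 837 and 2071. Has2 had 322 and 24, Has3 205 and 27, and Has1 13 and 4. A floor of 3 reads in a sample corresponded to between 0.0322 and 0.0463 RPKM for Has1, between 0.0344 and 0.0493 for Has2 and between 0.0228 and 0.0328 for Has3. It covers counting error only, since reads copied by PCR are not independent molecules. Of the 6 genes, 4 met the filter and were tested across all genes. Has1 did not, and Has2 did not because 1 week replicate 1 had only 9 reads, although its total was above that of Has3.

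Log2 fold changes, 3 weeks over 1 week, were fitted to the exon reads with edgeR, and p-values were adjusted over all 12590 tested genes. Of these, 4127 (32.8%) passed an adjusted p of 0.05, with 15.7% higher and 17.0% lower at 3 weeks. Of the 4 tested members 2 passed, Has3 with a fall and Hyal1 with a rise, and Cd44 and Hyal2 did not. Has3 met the filter through its 1-week reads, where it was high, so its adjusted p adds no support for a fall. With at least 10 reads required in every sample only Hyal1 passed. Means of RPKM were set against all 70 arrangements of the samples (exact permutation, two-sided), where p cannot fall below 0.0286. The groups did not overlap for Has3, which was lower at 3 weeks, as were 26.2% of the tested genes without overlap, and for Hyal1, which was higher, as were 10.8%, where chance gives 1 in 70 for each direction. Over all tested genes the median was 0.03 in edgeR and -0.16 in limma on log2(RPKM + 0.1).

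Among the synthases, Has2 makes very long chains and has been studied most in growing and migrating cells. Has2 (ENSMUSG00000022367, chromosome 15, 56665627 to 56694539, minus strand, GRCm38) was at 0.112, 0.355, 1.94 and 2.19 RPKM in replicates 1 to 4 at 1 week, and at 0.0507, 0.115, 0.0862 and 0.0964 RPKM at 3 weeks. Replicates 3 and 4 at 1 week were far above all other samples, and 1 week replicate 1 lay within the range of the 3-week samples. These levels rest on 9, 31, 118 and 164 exon reads at 1 week and on 4, 8, 6 and 6 later. Its mean went from 1.15 ± 1.07 RPKM to 0.0870 ± 0.0270 (SD, n = 4), and the exact permutation test gave p = 0.0571. The difference in mean RPKM therefore did not pass the threshold, while leaving out a sample gave exact p-values from 0.0286, without 1 week replicate 1, to 0.200. In edgeR without a filter on low counts the log2 fold change was -3.60 (standard error 0.82, adjusted p = 0.00967), which passed. Through its 1-week reads alone Has2 also met the filter in 5 edgeR fits with a sample left out, 1 week replicate 1 or any of the 3-week samples. Entry to these fits depended on the group where Has2 was high, so their adjusted p-values (0.00503 to 0.0487) add no support for a fall. Without 3 weeks replicate 3 the log2 fold change of Has2 was -3.61. In bulk RNA, fewer cells that express a gene and less RNA per cell cannot be told apart.

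Has3, which makes shorter chains and is a known synthase of KCs, had the same high samples. Has3 (ENSMUSG00000031910, chromosome 8, 106870242 to 106884566, plus strand) was at 0.189, 0.129, 0.775 and 0.835 RPKM in replicates 1 to 4 at 1 week, and at 0.0336, 0.0763, 0.124 and 0.0213 RPKM at 3 weeks. Every 3-week sample was below every 1-week sample, but the gap between 1 week replicate 2 and 3 weeks replicate 3 was small. Has3 had 23, 17, 71 and 94 exon reads at 1 week against 4, 8, 13 and 2 later. Has3 fell by 2.69 on the log2 scale (standard error 0.77, adjusted p = 0.0257, edgeR), and the exact permutation test of mean RPKM gave p = 0.0286. Has3 entered the fit through its reads at 1 week, the group where it was high, so its adjusted p-values add no support for a fall. With at least 10 reads required in every sample it was not tested. Without 3 weeks replicate 3 the fall was steeper (-3.32, adjusted p = 0.0188 in edgeR), and without any 1 of the 3-week samples the exact p was 0.143 to 0.171. The adjusted p rose above the threshold when 1 week replicate 3 (0.0632) or 4 (0.0705) or 3 weeks replicate 1 (0.0710) or 2 (0.0589) was left out (edgeR), and ranged from 0.00178 to 0.0710 over all alternatives. On TMM-scaled CPM, a pair of samples of the 2 times overlapped and the exact permutation p was 0.0571.

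Has1, the synthase of lowest activity in the family, was close to the limit of detection. Has1 (ENSMUSG00000003665, chromosome 17, 17843323 to 17855205, minus strand) had 2, 2, 2 and 7 exon reads in the 4 replicates of 1 week and 1, 2, 1 and 0 at 3 weeks, or 0.0233, 0.0215, 0.0308 and 0.0878 RPKM and 0.0119, 0.0269, 0.0135 and 0 RPKM. Only 1 week replicate 4 was above the floor of 3 reads, so no fold change was drawn from these values. The exact permutation test of mean RPKM gave p = 0.0857, and a difference was not detectable at this depth. The summed RPKM of the synthase genes was 0.324, 0.506, 2.75 and 3.12 at 1 week and 0.0962, 0.218, 0.224 and 0.118 at 3 weeks. Has2 made up 34.4%, 70.2%, 70.6% and 70.4% of this sum at 1 week and between 38.5% and 81.9% at 3 weeks. The shares at 3 weeks rest on only 9, 18, 20 and 8 reads of the synthase genes together, so no change was drawn from them.

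The high values of Has2 and Has3 in 1 week replicates 3 and 4 were set beside the marker lists. The summed RPKM of 5 suprabasal keratinocyte markers was 5.56, 3.96, 20.6 and 26.7 for the 4 replicates at 1 week and 3.86, 3.96, 3.93 and 13.6 at 3 weeks. Lor was the most abundant of them on average, although Ivl was above it in 3 weeks replicates 1 and 4 (2.04 and 10.3 RPKM), and Krt1 was the only marker of the list that passed the test (log2 fold change -2.44, adjusted p = 0.0132, edgeR). The 5 melanocyte markers summed to 4.76, 3.18, 15.4 and 20.9 RPKM at 1 week and 1.26, 5.50, 3.09 and 3.10 RPKM at 3 weeks, with Tyrp1 as the most abundant on average and Pmel as the only marker that passed (log2 fold change -2.06, adjusted p = 0.0266, edgeR). Both lists were thus highest in the same 1-week samples as Has2 and Has3, none of their markers was at 0 in all samples, and 4 of 5 in each list had at least 3 reads in every sample. The part of either cell population in the values of Has2 and Has3 was not tested.

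**Figure D2:**
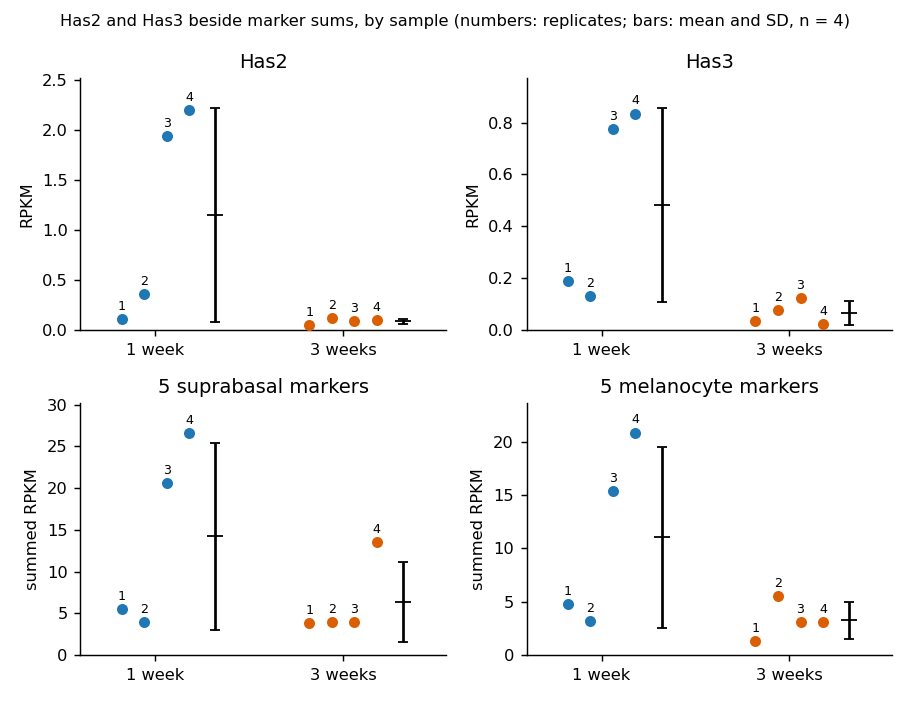
RPKM of Has2 and Has3 and the summed RPKM of 5 suprabasal keratinocyte and 5 melanocyte markers (y axes, linear, starting at 0) in each sample, with replicate numbers above the points and the mean and SD of 4 samples as black bars. Replicates 3 and 4 at 1 week are the highest samples in each of the 4 panels.

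Reads of Has2 and Has3 were mostly assigned without competition. Of the exon reads of Has2 87.9% and of Has3 99.1% were counted as unique by the authors' tool. In the GENCODE M21 annotation 182 of the 4237 exon bases of Has2 overlap the antisense gene Has2os, and 352 of the 6380 exon bases of Has3 overlap Chtf8 on the opposite strand. Whether strand was used in counting is not given and was not tested, and reads in these stretches cannot be told apart. Among genes with at least 100 reads, 108 share at least 50% of their exon bases on the opposite strand. Their median unique share was 29.1%, against 100% for 7905 genes without overlap. Has2os itself had between 0 and 2 reads in a sample, and no fold change was drawn from it.

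Cd44 (ENSMUSG00000005087, chromosome 2, 102811141 to 102901665, minus strand), the receptor, was by far the most abundant member. It was at 130.4, 177, 184 and 199 RPKM in replicates 1 to 4 at 1 week, and at 163, 136, 66.6 and 131 RPKM at 3 weeks. The groups overlapped, with 1 week replicate 1 below each 3-week sample but 3 weeks replicate 3, which was the lowest of all. Mean levels were 173 ± 29.5 and 124 ± 41.0 RPKM for the earlier and later time (SD, n = 4; exact permutation p = 0.114). The log2 fold change was -0.33 (standard error 0.24, adjusted p = 0.325, edgeR), and -0.17 without 3 weeks replicate 3 (standard error 0.17, adjusted p = 0.456, and 0.166 to 0.655 over all alternatives). A difference in total Cd44 RNA beyond the spread of the samples was not found in either case.

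The kinds of reads on Cd44 did differ between the times. Intron reads made up 4.16%, 3.27%, 3.01% and 3.62% of the reads on the gene at 1 week and 5.01%, 4.87%, 7.91% and 5.42% at 3 weeks. Each 3-week sample was above each 1-week sample, with 3 weeks replicate 3 the highest (exact permutation p = 0.0286, from 554 to 1090 intron reads per sample). Over whole libraries, introns held between 1.48% and 2.38% of reads on genes, and the times overlapped. Among 764 tested genes with at least 20 intron reads in each sample, 14.9% were likewise higher in each 3-week sample and 3.80% lower. Reads spanning an exon-exon junction made up 19.7%, 19.2%, 20.8% and 19.9% of the exon reads of Cd44 at 1 week and 19.2% (replicate 1), 18.4%, 17.2% and 18.4% at 3 weeks. The groups did not overlap, though 1 week replicate 2 and 3 weeks replicate 1 were almost equal (exact permutation p = 0.0286), and among 7512 genes with at least 20 such reads in each sample 6.22% were lower in the same way and 0.732% higher. Over whole libraries this share was also lower in each 3-week sample, as given above. Both shares were picked with the values in view, each p is unadjusted and the smallest this test allows, and a change in the processing of Cd44 RNA was not tested. The single exons of Cd44, among them its variant exons, were not analysed here. The tables' span of Cd44 also holds the predicted gene Gm23731.

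**Figure D3:**
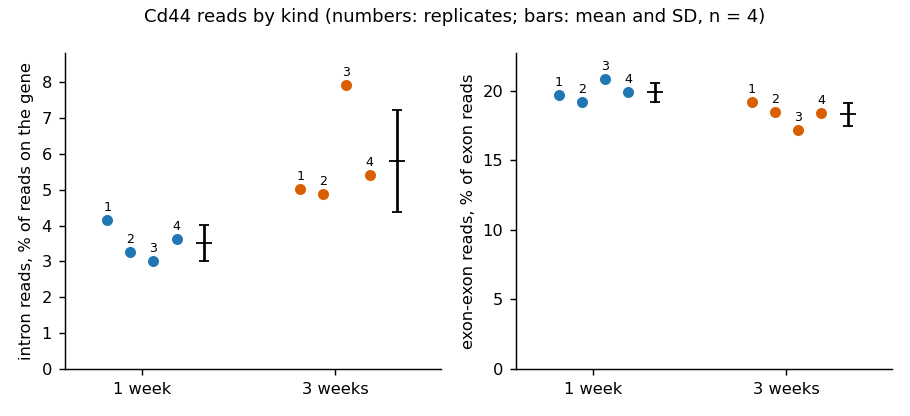
Intron reads as a percentage of all reads on Cd44 (left) and exon-exon reads as a percentage of its exon reads (right) in each sample, with replicate numbers above the points and the mean and SD of 4 samples as black bars. The intron share was 3.01% to 4.16% at 1 week and 4.87% to 7.91% at 3 weeks.

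Hyal1 (ENSMUSG00000010051, chromosome 9, 107576927 to 107581710, plus strand), the lysosomal hyaluronidase, was the member that rose. It was at 2.02, 3.17, 3.95 and 3.47 RPKM in replicates 1 to 4 at 1 week, and at 10.4, 7.04, 4.16 and 11.6 RPKM at 3 weeks. No sample of the earlier time reached the later ones, but 3 weeks replicate 3 only just exceeded 1 week replicate 3. The mean increased from 3.15 ± 0.821 to 8.30 ± 3.37 RPKM (SD, n = 4), which is 2.63-fold (exact permutation p = 0.0286). In edgeR the log2 fold change was 1.54 (standard error 0.30, adjusted p = 0.00516), and it was 1.72 without 3 weeks replicate 3. Without any 1 of the 1-week samples the exact p was 0.0571.

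The reads of Hyal1 are shared with a neighbour, and its level is therefore uncertain. Of its 3777 exon bases, 1920 are also exon bases of Naa80, an acetyltransferase gene on the same strand, and 159 of Hyal3. Only 3.37% of its exon reads were counted as unique, 3, 7, 6 and 9 reads at 1 week and 28, 18, 7 and 20 at 3 weeks. Of the exon bases of Hyal1, 1816 are shared with neither gene, and how the tool counts unique reads is not given in the sources used here. The cause of the low unique share was not tested. For 117 genes with at least 100 reads and at least 50% of their exon bases shared on the same strand, the median unique share was 1.83%, against 100% for 7905 genes without overlap. Naa80 was at 3.43, 3.99, 4.33 and 4.51 RPKM at 1 week and 8.40, 6.98, 3.57 and 10.6 RPKM at 3 weeks, and its edgeR estimate was 1.00 on the log2 scale (standard error 0.26, adjusted p = 0.0177). It followed the same samples as Hyal1, with 3 weeks replicate 3 within the 1-week range. With the reads of Hyal1, Naa80 and Hyal3 summed, the log2 fold change was 1.29 (standard error 0.27, adjusted p = 0.00715, edgeR), and with the unique reads of Hyal1 alone, unfiltered, it was 1.72 (standard error 0.48, adjusted p = 0.0254, edgeR). Both alternatives were chosen after the data had been seen. How the shared reads divide between Hyal1 and Naa80 cannot be told apart from these tables, and the rise is one of the locus as well as of the reads assigned to Hyal1.

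**Figure D4:**
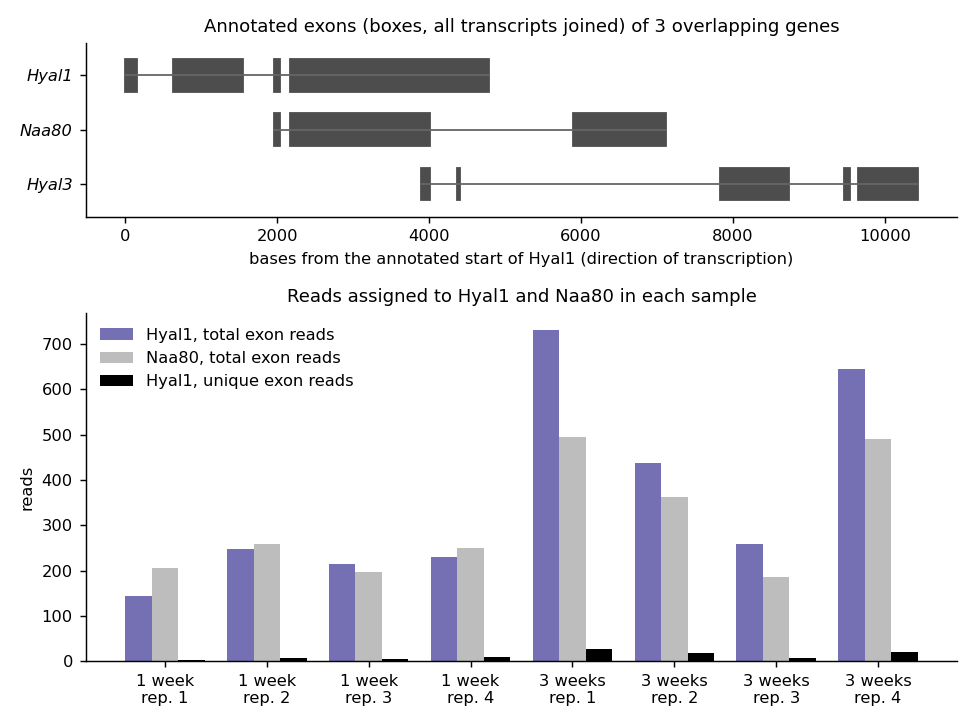
Top, annotated exons of Hyal1, Naa80 and Hyal3 as boxes along the distance in bases from the start of Hyal1. Bottom, total exon reads of Hyal1 and Naa80 and unique exon reads of Hyal1 (y axis, reads) in each sample, where Hyal1 had 145 to 247 total reads at 1 week and 258 to 731 at 3 weeks but only 3 to 28 unique reads in a sample.

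Hyal2 (ENSMUSG00000010047, chromosome 9, 107567945 to 107572779, plus strand), the hyaluronidase anchored at the cell surface, lies just upstream of Hyal1. It was at 21.5, 20.4, 21.4 and 18.6 RPKM in replicates 1 to 4 at 1 week, and at 22.1, 23.3, 21.5 and 12.9 RPKM at 3 weeks. Apart from 3 weeks replicate 4, which was the lowest, the samples lay close together and the groups overlapped. The means were close, 20.5 ± 1.36 and then 19.98 ± 4.76 RPKM (SD, n = 4; exact permutation p = 1.00). The log2 fold change was 0.14 (standard error 0.20, adjusted p = 0.631, edgeR) and turned to -0.07 in limma on log2(RPKM + 0.1). Without 3 weeks replicate 3 it was 0.0205 (adjusted p = 0.944, edgeR). Without 3 weeks replicate 4 it was 0.31 and passed (adjusted p = 0.0442, edgeR), so a call on Hyal2 depends on that sample. All exon reads of Hyal2 were unique. Hyal1 made up 8.57%, 13.5%, 15.6% and 15.7% of the summed RPKM of Hyal1 and Hyal2 at 1 week and 31.9%, 23.2%, 16.2% and 47.4% at 3 weeks, again with 3 weeks replicate 3 next to the 1-week samples.

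RefSeq promoter sequences were found for 4 of the 6 genes, Has1, Cd44, Hyal1 and Hyal2. Those of Hyal1, which rose, and of Cd44 and Has1, the most and the least abundant member, are shown to set the upstream sequence beside these levels. They run from 250 to 26 bases before the RefSeq start (GRCm38.p6), at chr9:107576700-107576924 on the plus strand for Hyal1, chr2:102901691-102901915 on the minus strand for Cd44 and chr17:17855214-17855438 on the minus strand for Has1, outside annotated exons of the gene itself. Capitals mark matches on either strand to the CCAAT box, the TATA box (TATAAA), the GC box (GGGCGG), the E box (CACGTG), the site of AP-1 factors (TGACTCA) or the core of NFAT sites (TGGAAA).
Hyal1: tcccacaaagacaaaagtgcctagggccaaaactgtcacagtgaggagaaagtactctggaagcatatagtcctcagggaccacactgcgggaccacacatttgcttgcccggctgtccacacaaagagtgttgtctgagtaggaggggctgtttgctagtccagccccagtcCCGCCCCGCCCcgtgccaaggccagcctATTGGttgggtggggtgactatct
Cd44: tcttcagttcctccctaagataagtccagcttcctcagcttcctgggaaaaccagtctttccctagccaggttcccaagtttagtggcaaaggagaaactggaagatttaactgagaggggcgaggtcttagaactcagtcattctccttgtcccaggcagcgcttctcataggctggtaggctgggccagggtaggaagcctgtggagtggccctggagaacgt
Has1: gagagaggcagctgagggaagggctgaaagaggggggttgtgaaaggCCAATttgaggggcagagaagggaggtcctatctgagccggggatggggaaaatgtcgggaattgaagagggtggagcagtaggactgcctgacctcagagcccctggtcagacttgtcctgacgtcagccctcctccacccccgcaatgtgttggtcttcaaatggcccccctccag
Hyal1 held 2 matches to the GC box on the reverse strand, which start 77 and 72 bases before the RefSeq start and share 1 base, and a reverse match to the CCAAT box at 49 bases. Has1 held a CCAAT box at 203 bases, and Cd44 held no match in this window. Hyal2, whose sequence is not shown, held a GC box at 47 bases, in a window with 155 exon bases of the gene itself. Of 32851 promoters of the same length 31.6% held the CCAAT box, 29.2% the GC box, 10.6% the TATA box, 5.16% the E box, 4.10% the AP-1 site and 17.2% the NFAT core on either strand. The GC content of the windows was 56.4% for Hyal1, 52.9% for Cd44 and 59.1% for Has1. Such matches describe letters and are not binding sites.

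The rest of the pathway was described from 60 further genes in 6 lists. Of these 37 were tested, 8 were higher and 3 lower at 3 weeks, with a median of 0.16 on the log2 scale. The 11 that passed are 29.7% of those tested, near the 32.8% of all tested genes (15.7% higher and 17.0% lower), beside which the counts of each list stand. Precursors of hyaluronan are supplied by the UDP-sugar pathways, whose 12 listed genes were all tested, with 2 higher and none lower (median 0.15). Gfpt1, the first enzyme of hexosamine synthesis, was at 9.05 to 10.8 RPKM at 1 week and 10.9 to 14.3 at 3 weeks, and rose (log2 fold change 0.56, standard error 0.11, adjusted p = 0.00416, edgeR). Pgm1, a phosphoglucomutase, was at 21.4 to 24.6 RPKM and then 25.7 to 32.3 (log2 fold change 0.48, adjusted p = 0.0137, edgeR). It did not pass in limma (adjusted p = 0.0517 on log2(RPKM + 0.1)), nor in edgeR with the replicate number or the file numbers as a block. The gene of the list that was most abundant on average, Gpi1, was at 62.8 to 78.6 RPKM at 1 week and 48.9 to 62.8 later and did not pass (-0.14 in edgeR, adjusted p = 0.461). Its groups did not overlap by RPKM (exact permutation p = 0.0286), as for 26.2% of the tested genes in that direction. The log2 fold change of Gpi1 was -0.31 in limma on log2(RPKM + 0.1) and -0.0637 without 3 weeks replicate 4 (edgeR), and passed in neither.

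Of 10 genes for chain cutting and clearance beside Hyal1 and Hyal2, 5 were tested, 2 were higher and 1 lower (median 0.17). Cemip, a hyaluronan-binding protein needed for its breakdown in fibroblasts, was at 0.429, 0.933, 0.826 and 0.913 RPKM at 1 week and 0.224, 0.259, 0.199 and 0.167 at 3 weeks. All 3-week samples were below all 1-week samples, and Cemip fell by 1.70 on the log2 scale (standard error 0.28, adjusted p = 0.00211, edgeR). Its relative Cemip2, also known as Tmem2, a hyaluronidase of the cell surface, was at 1.66, 1.71, 2.77 and 2.75 RPKM at 1 week and 4.52, 3.91, 2.35 and 7.31 later, and edgeR gave 1.17 (log2, standard error 0.31, adjusted p = 0.0200). It did not pass in limma on log2(RPKM + 0.1) (adjusted p = 0.0609) or without 1 week replicate 1 (0.0714) or 2 (0.0570, edgeR). Its 3 weeks replicate 3 lay within the 1-week range, as for Naa80. Hexa, a lysosomal hexosaminidase subunit that removes end sugars from the fragments, was on average the most abundant of the list, at 13.4 to 27.5 RPKM at 1 week and 34.8 to 47.8 at 3 weeks (log2 fold change 1.24, standard error 0.23, adjusted p = 0.00409, edgeR). Hyal5, Hyal6 and Spam1, which belong to sperm, had 0 reads in all samples, and Hyal3 and Hyal4 had too few reads to be tested.

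Of 7 receptors other than Cd44, 6 were tested, with 1 higher and 1 lower (median 0.10). Hmmr, a hyaluronan-binding protein that also acts on the mitotic spindle, was at 2.63, 3.19, 7.54 and 8.09 RPKM at 1 week and 0.553, 0.549, 0.291 and 0.439 at 3 weeks. It was highest in the same 1-week samples as Has2 and Has3, the groups did not overlap, and it fell by 3.39 on the log2 scale (standard error 0.42, adjusted p = 0.000670, edgeR). Tlr2, a receptor that hyaluronan fragments can engage, was on average the most abundant of the list and rose from 4.23 to 7.18 RPKM at 1 week to between 11.9 and 13.5 RPKM at 3 weeks (log2 fold change 1.36, standard error 0.18, adjusted p = 0.000839, edgeR).

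Of 18 hyaluronan-binding matrix and serum proteins only Vcan and Habp4 were tested, and neither passed (median 0.27). Vcan, the large proteoglycan versican, had the highest mean, carried by 3 weeks replicate 4, at 1.69, 2.99, 2.86 and 2.41 RPKM at 1 week and 2.24, 1.91, 1.12 and 5.18 at 3 weeks. Its log2 fold change of 0.21 (adjusted p = 0.717, edgeR) rested on 3 weeks replicate 4, without which it was -0.33 (adjusted p = 0.324, edgeR, and up to 0.945 elsewhere). It was 0.42 without 3 weeks replicate 3 and -0.11 in limma on log2(RPKM + 0.1). Ambp, Itih4 and Habp2, which are mainly made in liver, had 0 reads in all samples.

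Of 12 genes that anchor, cleave, splice or bind Cd44 all were tested, with 3 higher and 1 lower (median 0.24). Spp1, the Cd44 ligand osteopontin, was at 2.04, 4.98, 2.49 and 2.48 RPKM at 1 week and 11.9, 14.6, 4.36 and 8.18 at 3 weeks (log2 fold change 1.84, standard error 0.38, adjusted p = 0.00664, edgeR). The groups overlapped through 1 week replicate 2 and 3 weeks replicate 3. Of the proteases that can shed Cd44, Mmp14 was at 14.6 to 21.1 RPKM at 1 week and 15.1 to 41.8 at 3 weeks (log2 fold change 0.99, adjusted p = 0.0172, edgeR), and Adam10 at 20.05 to 27.9 and 25.5 to 35.1 RPKM (log2 fold change 0.58, adjusted p = 0.0110, edgeR). Neither passed in limma on log2(RPKM + 0.1) (adjusted p = 0.0846 for Mmp14 and 0.0571 for Adam10), nor did Mmp14 without 1 week replicate 1 (0.0673, edgeR). With the replicate number as a block neither passed in edgeR, and with the file numbers as a block Adam10 did not. In both the lowest 3-week sample was replicate 3 and lay within the 1-week range. Esrp1, a splicing factor that promotes inclusion of the variant exons of Cd44, lay between 28.6 and 40.3 RPKM at 1 week and between 16.7 and 24.9 later, a fall (log2 fold change -0.46, adjusted p = 0.0332, edgeR). Of its reads 65.3% were unique, and leaving out 1 sample gave adjusted p-values from 0.0233 to 0.0933 (edgeR), above the threshold in 5 of 8 cases. Esrp1 also did not pass with the replicate number (adjusted p = 0.0801) or the file numbers (0.164) as a block (edgeR). Msn, the cytoskeletal linker moesin, was the most abundant on average, at 197 to 268 RPKM at 1 week and 195 to 329 at 3 weeks, and did not pass (log2 fold change 0.41, adjusted p = 0.0976, edgeR), but did in DESeq2 (adjusted p = 0.0372) and in edgeR without 3 weeks replicate 3 (adjusted p = 0.0327, against up to 0.352 in other alternatives).

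**Figure D5:**
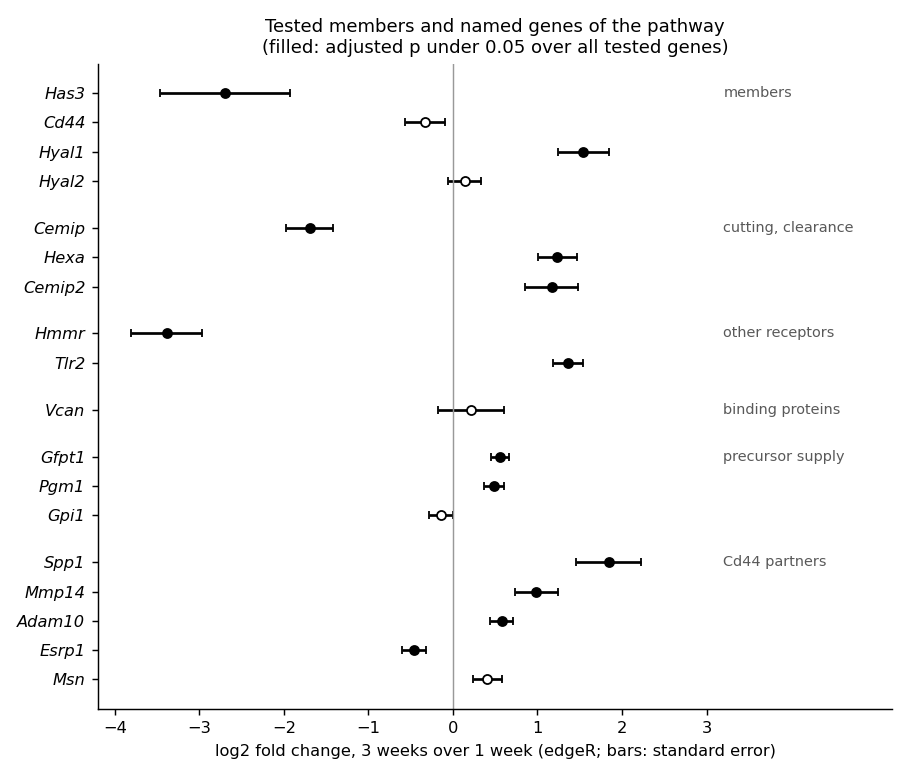
Log2 fold change, 3 weeks over 1 week, in edgeR (x axis) for the 4 tested members and the named tested genes of the pathway lists (y axis), with standard errors as bars, filled where the adjusted p over all tested genes was under 0.05. Hmmr (-3.39) and Has3 (-2.69) lie farthest to the left, and Spp1 (1.84) and Hyal1 (1.54) farthest to the right. Has3 met the filter through its 1-week reads, where it was high.

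Finally, 8555 genes with a mean CPM of at least 10 were compared with each tested member by the root-mean-square difference of their log2 CPM over the 8 samples, each centred on its own mean. The genes most like Has3 were Asprv1 (difference 0.285), Hist1h2ah (0.399) and Aqp3 (0.449). Asprv1, a protease of the upper epidermis, was at 93.4, 38.2, 265 and 342 RPKM at 1 week and 16.5, 39.0, 36.3 and 15.3 at 3 weeks, with the same pair of high samples as Has3. Only 0.0481% of the reads of Hist1h2ah, a histone gene, were unique. Among those most like Cd44 were the integrin gene Itga3 (0.0991) and Sec24b (0.102). Itga3 was at 218, 261, 297 and 294 RPKM at 1 week and 261, 216, 115 and 181 at 3 weeks, lowest in 3 weeks replicate 3 as Cd44 was. For Hyal1 they were Nfat5 (0.114), Vwa8 (0.176) and Bace1 (0.209). Nfat5, the osmo-sensitive transcription factor gene, was at 0.949, 1.20, 1.73 and 1.56 RPKM at 1 week and 3.79, 2.90, 1.70 and 4.93 later, and the groups overlapped through 3 weeks replicate 3. For Hyal2 they were Slc25a24 (0.0559), Krt17 (0.0675) and Akt1 (0.0716), and all of these were lowest in 3 weeks replicate 4. The measure ranks likeness of profiles across these 8 samples and was given no test.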

How the data were processed

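RNA of cultured mouse KCs was measured in 8 samples, 4 at 1 week and 4 at 3 weeks, grouped by the deposited labels. The authors prepared poly(A) libraries, trimmed adapters and aligned the reads to GRCm38 in the CLC Genomics Workbench at default RNA-seq settings. The deposited counts (total and unique exon reads, gene, intron and exon-exon reads) are whole reads without normalization. The deposited RPKM values, written with decimal commas, equalled exon reads per exon length scaled by a single number per sample. The annotation release and the use of strand are not given in the sources used here. Exon lengths equalled those of GENCODE M21 (GRCm38) for 36918 of 41434 shared gene identifiers, the 6 members among them.

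Exon reads were tested in edgeR 4.0.16 (R 4.3.3; filterByExpr, TMM, glmQLFit, glmQLFTest, Benjamini-Hochberg adjustment over 12590 genes, threshold 0.05), without pairing. Standard errors were derived from the F statistics. Likeness used log2 CPM with a prior count of 2. Single values were compared by two-sided exact permutation tests. Python 3.11.15 and matplotlib 3.10.9 were used otherwise. The testing step was tested on simulated data. Depth was 13896807 to 20026084 exon reads per sample.

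Named are the members, up to 4 passing genes of each pathway list with the largest change, the gene of each list with the highest mean RPKM, and 3 genes most like each tested member, of which 1 is not reported here, nor is 1 marker list. Members and lists were chosen with earlier results of these data known. Alternatives were the replicate number or a number in the names of the deposited files as a block, DESeq2 1.42.0, upper-quartile normalization, other filters, unique or gene reads, limma 3.58.1 on log2(RPKM + 0.1) or log2(RPKM + 1), and the omission of each sample. The summed Hyal1 locus, unfiltered unique reads, and the omission of samples or TMM-scaled CPM in the exact tests were chosen only once the data were known.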

Additional observations from a re-analysis of the deposited data

Results flagged for a closer look

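In 3 of 42 groups of 4 samples checked among the members and the named pathway genes, a sample lay so far from the other 3 that it passed the Dixon limit for 4 values. Chance marks about 1 in 20 such groups. At 1 week, Has1 was at 0.0878 RPKM in replicate 4 and at 0.0215 to 0.0308 in the others, a difference of few reads. At 1 week, Spp1 was at 4.98 RPKM in replicate 2 and at 2.04 to 2.49 in the others. At 3 weeks, Adam10 was at 25.5 RPKM in replicate 3 and at 33.8 to 35.1 in the others.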

How the results depend on the processing

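The count of all genes that passed stayed within 1.5 times its value of 4127 under each alternative, from 2867 with the replicate block to 4882 with DESeq2, and from 3015 to 4861 when a sample was left out. The share of higher genes among them went from 48.0% to 29.8% in limma on log2(RPKM + 0.1). After the group mean was removed, samples with equal numbers correlated at -0.227, -0.146, -0.146 and 0.249, and only replicate 4 was most like its own number. The paper states that batches were the same at both times, but the labels do not say which samples share one. The 3 numbers in the file names found at both times gave -0.227 (46), 0.2 (49) and 0.249 (90). The samples of 49 and 90 were most like their own number at the other time, and those of 46 were not. Neither set of numbers was therefore taken to pair the samples, and the shared batches cannot be matched from these labels. With the replicate block 2 members still passed, Has3 (-2.47) and Hyal1, while Pgm1 (adjusted p = 0.0654), Mmp14 (0.0603), Adam10 (0.0508) and Esrp1 (0.0801) did not. With the file numbers as a block, which also left out the samples without a partner, 1 week replicate 2 and 3 weeks replicate 3, 3109 genes passed, and Pgm1 (0.116), Adam10 (0.0605) and Esrp1 (0.164) did not (edgeR).

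The number of members that passed was 2, and it was 3 without a filter on low counts, where Has2 passed, and 1 with at least 10 counts in every sample or with unique exon reads, where Has3 or Hyal1 had too few reads for the filter, and 1 in limma on log2(RPKM + 1), where Has3 was at -0.44 (adjusted p = 0.0621). It ranged from 1 to 4 when a sample was left out, counting Has2 where its 1-week reads alone met the filter. Has3 is counted wherever it passed, and it met the filter of the main fit through its 1-week reads too. Leaving out a sample gave log2 fold changes of -3.32 to -2.28 for Has3 and 0.0205 to 0.312 for Hyal2. Hyal1 passed and Cd44 did not in each alternative that tested them. Hyal2 turned to -0.0393 with the file numbers found at both times as a block, -0.0689 in limma on log2(RPKM + 0.1) and -0.0642 on log2(RPKM + 1). The causes were not tested.

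Of 252 values of named pathway genes under alternatives, 224 kept direction and side of the threshold, 23 no longer passed, 2 passed newly and 3 turned, all of Vcan: -0.11 and -0.0478 in limma on log2(RPKM + 0.1) and log2(RPKM + 1), and -0.33 without 3 weeks replicate 4. Leaving out a sample gave up to 0.422 for Vcan.

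For mean RPKM (3 weeks minus 1 week) the omission of a sample gave -1.41 to -0.715 for Has2, which passed once, -0.536 to -0.301 for Has3, 4.04 to 6.53 for Hyal1, which each missed the exact threshold 4 times, and -1.60 to 1.87 for Hyal2, of which 1.87, without 3 weeks replicate 4, turned. In TMM CPM the difference was -2.54 for Has3, which no longer passed, and 6.56 for Hyal2, which turned.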
